A study of Mus musculus with 5 samples.

Results

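Retinoic acid is made, carried, read and destroyed by a small set of proteins, and 10 of their genes were followed here in the iridocorneal angle of DBA/2J and Gpnmb+ mice. The genes were taken by name from a table of 56941 gene identifiers. They are Aldh1a1, Aldh1a2 and Aldh1a3 for synthesis, Dhrs3 for the return of the precursor to retinol, Crabp1 and Crabp2 for binding in the cytosol, Rarb and Rarg as nuclear receptors, and Cyp26a1 and Cyp26b1 for breakdown. The angle holds the trabecular meshwork and Schlemm's canal, through which aqueous humor leaves the eye. The tissue came from untreated mice aged 12 months, labelled male and female in both genotypes. Sex-linked reads, given below, go against this label for Gpnmb+. The tissue was combined into 3 pools of DBA/2J and 2 of Gpnmb+, and its RNA was sequenced. DBA/2J mice carry a premature stop codon in Gpnmb, which codes for a melanosomal and phagocyte glycoprotein, together with the Tyrp1 b allele, and they develop pigment dispersion and high intraocular pressure. Gpnmb+ mice, in full DBA/2J-Gpnmb+/SjJ, have a functional Gpnmb and keep Tyrp1 b, so both groups share the Tyrp1 allele and the DBA/2J background. The iris and ciliary body were removed under the microscope before the angle was cut out, and some remnants of both stayed on the tissue. The design states 3 animals in each pool, whereas the library names list 3 animals for each DBA/2J pool and 2 for each Gpnmb+ pool. Each pool is a separate set of animals, and the p-values measure the spread between pools only.

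Cells take up retinol from its carrier protein, oxidize it to retinaldehyde and then, through an Aldh1a enzyme, to retinoic acid. Inside the cell Crabp proteins carry the acid either to receptors or to Cyp26 enzymes, which hydroxylate it and end its action. The receptors Rara, Rarb and Rarg pair with Rxr partners on DNA and switch genes on when the acid is bound. In the eye this pathway is known for its part in forming the cornea, iris and drainage angle from periocular mesenchyme, and for the upkeep of the ocular surface.

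The classic binding site of these receptors is a direct repeat of a 6-base half-site with 5 bases between the copies, called DR5. The windows from 250 bases before to 50 bases after each RefSeq transcription start (GRCm38.p6) were searched for it on both strands. Each half-site was taken as A or G, then G, then G or T, then TCA. DR5 was present in 32 of 32851 windows, or 0.0974%, belonging to 31 genes. Rarb and Cyp26a1 were the members with a match, while Aldh1a3 and Crabp2 had no window in the RefSeq set. Their elements are shown because both genes are textbook targets that retinoic acid switches on. Each is printed 5′ to 3′ on the strand of the gene, with the element in capitals and 6 flanking bases on each side in lower case.
Rarb: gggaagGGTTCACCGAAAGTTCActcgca
Cyp26a1: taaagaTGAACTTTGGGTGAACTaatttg
The Rarb element lies 53 to 37 bases before the RefSeq start, at chr14:16575513-16575529 on the minus strand of GRCm38.p6, and its half-sites are GGTTCA and AGTTCA. The Cyp26a1 element lies 32 to 16 bases before the start, at chr19:37697776-37697792 on the plus strand, and it reads as AGTTCA and AGTTCA on the strand opposite the gene. Each stretch matched GRCm39, the build of the counts, at 1 place on its chromosome. There the Rarb element, at chr14:5894234-5894250, fell in an annotated UTR exon of 13 of the 21 GENCODE transcripts of Rarb. The Cyp26a1 element, at chr19:37686224-37686240, fell in no exon of the 2 Cyp26a1 transcripts. The related repeats with a spacer of 2 bases (DR2, 0.2679% of windows) or 1 base (DR1, 0.2222%) were found in no member. A match is a run of letters and not a measured binding site.

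Levels are given as CPM, that is, read counts scaled to a library of 1000000 reads after TMM normalization. The libraries held 43900661 to 49837758 counts. Gpnmb was at 45.9, 52.0 and 43.6 CPM in DBA/2J and at 2560 and 2260 CPM in Gpnmb+, in the order of the labelled genotypes (log2 fold change −5.67, SE 0.14; edgeR adjusted p = 0.000231). The Y-linked gene Ddx3y was read 3608, 4168 and 1567 times in DBA/2J, against 0 and 4 times in Gpnmb+. Xist, from the inactive X chromosome of females, was read 596, 0 and 2417 times in DBA/2J, against 7843 and 9152 times in Gpnmb+. Kdm5d, Uty and Eif2s3y, also Y-linked, had at most 1 read in either Gpnmb+ pool. By these counts both Gpnmb+ pools held almost only female RNA, against their label of male and female mice. DBA/2J pool 2 showed no female RNA, while DBA/2J pools 1 and 3 held reads of both kinds. Sex and genotype therefore cannot be told apart in any value below.
Markers of other cell types also moved with genotype. All 5 markers of the nonpigmented ciliary epithelium were higher in DBA/2J, 3 of them called (Six6, Col9a1, Col9a2), with a summed level whose median was 855 and highest value 964 CPM in DBA/2J, against 152 and 267 CPM in the Gpnmb+ pools, which lay under all 3 DBA/2J pools. All 6 Schwann cell markers were lower, 1 of them called (S100b), at 148 to 198 CPM in sum against 241 to 298. Of 4 trabecular meshwork markers, Chi3l1 stood higher and Myoc, Mgp and Edn3 stood lower in DBA/2J, and Edn3 alone was called. All 8 skeletal muscle markers stood higher, with 0 called by edgeR, at 190 to 447 CPM in sum against 120 to 191. The 5 fibroblast markers, of which 4 stood higher and 0 were called, summed to 3190 to 3990 CPM against 2000 to 2390. The 9 markers of corneal and conjunctival epithelium, 3 higher and 6 lower with 0 called, overlapped in sum. Only Krt12 among them had pools that did not overlap, at 254, 116 and 9.44 CPM in DBA/2J against 1700 and 554. The corneal stroma had 1 marker higher and 3 lower, with 0 called. Among all 16 lists of cell type markers 1 more gene was called, Slc45a2 of the pigment cells, which was lower in DBA/2J. No gene of the ciliary, Schwann cell and trabecular meshwork lists was at 0 in any pool. The part of sex and of these cell types in the results was not tested, and in bulk tissue fewer cells of a type and less RNA per cell cannot be told apart.

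All 10 genes were detected in all 5 pools. A gene was called changed when edgeR's quasi-likelihood test gave a Benjamini-Hochberg adjusted p of at most 0.05 over all 19713 genes tested and a fold change of at least 1.5. By this rule 0 of the 10 were called, where 0.796% of all tested genes were (157 genes, of which the 99 higher in DBA/2J are 0.502% and the 58 lower 0.294%). Without adjustment 5 of the 10 had p at or under 0.05 (Aldh1a2, Dhrs3, Crabp1, Crabp2 and Rarg), against 15.9% of all genes. DESeq2 called 2 of them, Aldh1a2 and Crabp2, where it called 5.21% of the genes it tested, and limma-voom called 0, where it called 0.964% of all genes. The pools of the genotypes did not overlap for 7 of the 10 (3 higher and 4 lower in DBA/2J), against 34.5% of all genes (17.3% higher and 17.2% lower). The 10 were chosen with earlier results of these data known, so these counts do not test the set against all genes. Of the 10, 5 had higher and 5 had lower fitted levels in DBA/2J, where 47.4% of all genes were higher. The log2 fold changes had a median of 0.05, beside −0.017 over all genes tested.

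**Figure D1:**
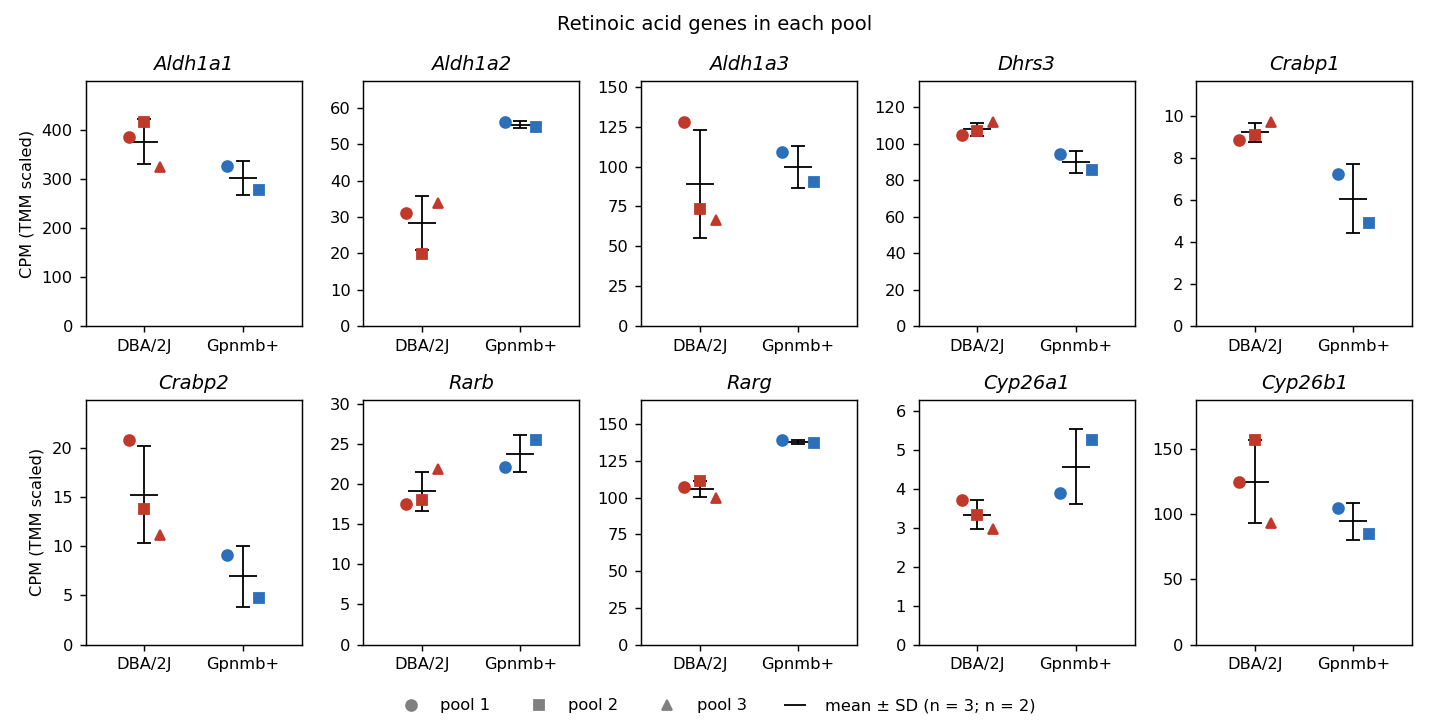
CPM (TMM scaled, vertical axis from 0 in each panel) of the 10 retinoic acid genes in the 3 DBA/2J pools (red) and 2 Gpnmb+ pools (blue); bars show the mean ± SD and symbols the pool number. Aldh1a2 and Rarg are lower and Crabp2 is higher in every DBA/2J pool, while Aldh1a1, Aldh1a3 and Cyp26b1 overlap.

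Among the synthetic enzymes, Aldh1a2 showed the widest gap between genotypes. Aldh1a2 (ENSMUSG00000013584, chr9:71122630-71203527, plus strand, GRCm39), the main retinaldehyde dehydrogenase of the mesenchyme in embryos, was at 31.1, 19.8 and 33.9 CPM in DBA/2J and at 56.2 and 54.7 CPM in Gpnmb+. Both Gpnmb+ pools lay above every DBA/2J pool, and DBA/2J pool 2 was the lowest. The means were 28.3 ± 7.49 (SD, n = 3) and 55.4 ± 1.04 (SD, n = 2), so the level was 1.96-fold higher in Gpnmb+. The log2 fold change of DBA/2J over Gpnmb+ was −0.97 (SE 0.22, 95% interval −1.51 to −0.43, edgeR adjusted p = 0.117). DESeq2 gave −0.97 with an adjusted p of 0.00318. Without DBA/2J pool 2, which had 0 Xist counts, the log2 fold change was −0.77. From these same pools the study lists Aldh1a2 as lower and Crabp2 as higher in DBA/2J. Its rule was 1.5-fold and a DESeq2 p-value of at most 0.05, which differs from the edgeR rule used here. Its log2 fold changes were moderated with the ashr package, which was not done here. The study sets proteins of separate eyes beside them, which are not analysed here. It marks Aldh1a2 as lower in both RNA and protein, while Crabp2 is listed as higher without such a mark. Since the pools are the same, the RNA values here are not independent evidence of a direction. Every edgeR SE was taken as the absolute log2 fold change over the square root of the quasi-likelihood F statistic. The 95% intervals follow from it, so one that leaves out 0 restates an unadjusted p under 0.05. The intervals given here are for 1 gene at a time and are not widened for the number of genes tested.

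Aldh1a1 (ENSMUSG00000053279, chr19:20469539-20622825, plus strand), an abundant dehydrogenase of cornea, retina and lens, was at 386, 416 and 325 CPM in DBA/2J and at 326 and 277 CPM in Gpnmb+. DBA/2J pool 3 and Gpnmb+ pool 1 were level with each other, so the groups met. The means of 376 ± 46.2 (SD, n = 3) and 301 ± 34.7 (SD, n = 2) gave a log2 fold change of 0.32 (95% interval −0.02 to 0.66, edgeR adjusted p = 0.341). Its paralog Aldh1a7 had 1 run of 100 bases in common with the 12013 such runs of Aldh1a1 transcripts, so few reads could fall to the wrong copy. No other member had an exact 100-base run in common with its family.

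Aldh1a3 (ENSMUSG00000015134, chr7:66040638-66077850, minus strand), the third enzyme, known from ventral retina and surface epithelium, was at 128, 73.1 and 66.2 CPM in DBA/2J and at 109 and 90.2 CPM in Gpnmb+. DBA/2J pool 1 was the highest and pool 3 the lowest of all 5, so the Gpnmb+ pools fell inside the DBA/2J range. The log2 fold change was −0.16 (95% interval −0.87 to 0.55, edgeR adjusted p = 0.833), and without DBA/2J pool 3 it was 0.01.

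Within the Aldh1a family the shares of Aldh1a1 and Aldh1a2 did not overlap between genotypes, while the summed level did. Per kilobase of exon the 3 genes summed to 65.2, 55.8 and 49.2 CPM per kb in DBA/2J and to 61.6 and 53.4 in Gpnmb+. Aldh1a2 made up 10.3%, 7.65% and 14.9% of that sum in DBA/2J and 19.7% and 22.1% in Gpnmb+. Aldh1a1 made up 55.2%, 69.3% and 61.5% against 49.2% and 48.2%. So the share of Aldh1a2 was lower, and that of Aldh1a1 higher, in all 3 DBA/2J pools than in both Gpnmb+ pools. A lower share of Aldh1a2 raises the rest, since all are parts of the same sum, so these shifts are not separate results. The CPM of Aldh1a1 itself met between the genotypes. The shares of Aldh1a3, 23.0% to 34.5% against 29.7% to 31.1%, overlapped. No test was run on shares, since an exact permutation test of the absolute difference between 3 and 2 pools cannot give a p below 0.1.

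**Figure D2:**
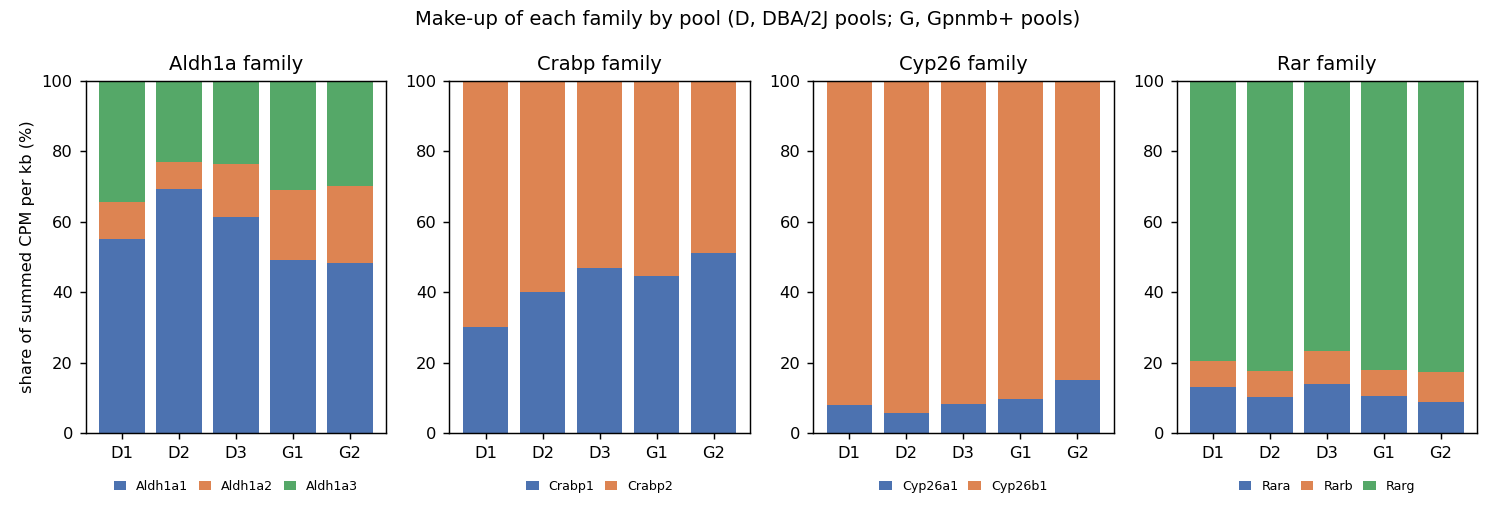
Share of each gene (%) in the summed CPM per kb of exon of its family, in DBA/2J pools D1 to D3 and Gpnmb+ pools G1 and G2. The Aldh1a2 segment covers 7.65% to 14.9% in DBA/2J and 19.7% to 22.1% in Gpnmb+, and Rarg and Cyp26b1 hold most of their families in all 5 pools.

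Dhrs3 (ENSMUSG00000066026, chr4:144619245-144654779, plus strand) codes for the enzyme that reduces retinaldehyde back to retinol and so limits synthesis. It was at 105, 107 and 112 CPM in DBA/2J and at 94.1 and 85.5 CPM in Gpnmb+. All DBA/2J pools lay above both Gpnmb+ pools, and the 3 DBA/2J pools were close to each other. The means were 108 ± 3.72 (SD, n = 3) and 89.8 ± 6.11 (SD, n = 2). The log2 fold change of 0.27 (SE 0.08, 95% interval 0.06 to 0.47) had an edgeR adjusted p of 0.222 and lay under the 1.5-fold limit.

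Both cytosolic binding proteins stood higher in DBA/2J, Crabp2 by the larger factor. Crabp2 (ENSMUSG00000004885, chr3:87855973-87860683, plus strand), the carrier that hands the acid to receptors in the nucleus, was at 20.8, 13.8 and 11.2 CPM in DBA/2J and at 9.15 and 4.76 CPM in Gpnmb+. The groups did not overlap, yet each varied widely, and the lowest DBA/2J pool lay close to the higher Gpnmb+ pool. The means of 15.3 ± 4.97 (SD, n = 3) and 6.95 ± 3.1 (SD, n = 2) stood 2.19-fold apart (log2 fold change 1.13, SE 0.37, 95% interval 0.23 to 2.04, edgeR adjusted p = 0.231). DESeq2 gave 1.14 with an adjusted p of 0.0349. The size rested on single pools: the log2 fold change became 1.68 when Gpnmb+ pool 1 was left out and 0.74 when Gpnmb+ pool 2 was.
Crabp1 (ENSMUSG00000032291, chr9:54671171-54680403, plus strand), the carrier linked to breakdown of the acid, was at 8.88, 9.09 and 9.73 CPM in DBA/2J and at 7.23 and 4.91 CPM in Gpnmb+. Here the DBA/2J pools agreed closely and the Gpnmb+ pools did not. The log2 fold change was 0.60 (SE 0.20, 95% interval 0.12 to 1.09, edgeR adjusted p = 0.23), and leaving out Gpnmb+ pool 1 gave 0.91 and leaving out Gpnmb+ pool 2 gave 0.35. Per kilobase the pair summed to 22.5, 17.4 and 15.9 CPM per kb in DBA/2J and to 12.5 and 7.36 in Gpnmb+. Crabp2 made up 53.2% to 69.8% of this sum in DBA/2J and 48.9% to 55.5% in Gpnmb+, so its share overlapped although its level did not.

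Rarg and Rarb had lower means in DBA/2J, neither of them called, and Rara did not (described with the other receptors). Rarg (ENSMUSG00000001288, chr15:102143373-102165952, minus strand), the gamma receptor and the main one of skin and cartilage, was at 107, 111 and 99.8 CPM in DBA/2J and at 139 and 137 CPM in Gpnmb+. The 2 groups were clearly apart and each was tight, with means of 106 ± 5.7 (SD, n = 3) and 138 ± 1.56 (SD, n = 2). The log2 fold change was −0.39 (SE 0.08, 95% interval −0.59 to −0.19, unadjusted p = 0.00321, edgeR adjusted p = 0.104), the smallest p of the 10 genes. DESeq2 gave −0.38 with an adjusted p of 0.00226, but at under 1.5-fold it was not called there either. Leaving out each pool in turn kept the value between −0.42 and −0.34.
Rarb (ENSMUSG00000017491, chr14:5650540-6041094, plus strand of GRCm39), the beta receptor with the promoter element shown above, was at 17.5, 18.0 and 21.9 CPM in DBA/2J and at 22.2 and 25.5 CPM in Gpnmb+. The highest DBA/2J pool almost reached the lower Gpnmb+ pool. The log2 fold change was −0.31 (SE 0.14, 95% interval −0.65 to 0.03, edgeR adjusted p = 0.348). Top2b lies on the opposite strand with 2612 of the 8366 exon bases of Rarb inside its own exons. The strand used in counting is not given in the sources used here, so the Rarb values are uncertain. In the receptor family Rarg held 76.7% to 82.4% of the summed CPM per kb in DBA/2J and 82.1% to 82.7% in Gpnmb+, with Rarb at 7.23% to 9.31% and 7.22% to 8.49%. The sum over Rara, Rarb and Rarg was 28.9, 29.1 and 28.2 CPM per kb in DBA/2J and 36.6 and 35.8 in Gpnmb+, and most of that gap was Rarg.

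The enzymes of breakdown did not share a direction. Cyp26b1 (ENSMUSG00000063415, chr6:84548396-84570890, minus strand), the hydroxylase of many mesenchymal tissues, was at 125, 157 and 93.1 CPM in DBA/2J and at 105 and 84.8 CPM in Gpnmb+. The DBA/2J pools spanned the Gpnmb+ value of pool 1, and the log2 fold change was 0.40 (SE 0.23, 95% interval −0.15 to 0.95, edgeR adjusted p = 0.45). Without DBA/2J pool 2 it was 0.20. Cyp26b1 lies on the same chromosome as Gpnmb, 35.5 megabases away. Cyp26a1 (ENSMUSG00000024987, chr19:37686241-37689984, plus strand), the hydroxylase that retinoic acid itself switches on, was at only 3.71, 3.33 and 2.96 CPM in DBA/2J and at 3.90 and 5.25 CPM in Gpnmb+. These rest on 132 to 257 reads a pool. Its log2 fold change was −0.46 (SE 0.21, 95% interval −0.97 to 0.06, edgeR adjusted p = 0.362), with −0.65 without Gpnmb+ pool 1 and −0.23 without Gpnmb+ pool 2. Per kilobase Cyp26b1 made up 91.7% to 94.3% of the pair in DBA/2J and 84.9% to 90.4% in Gpnmb+.

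**Figure D3:**
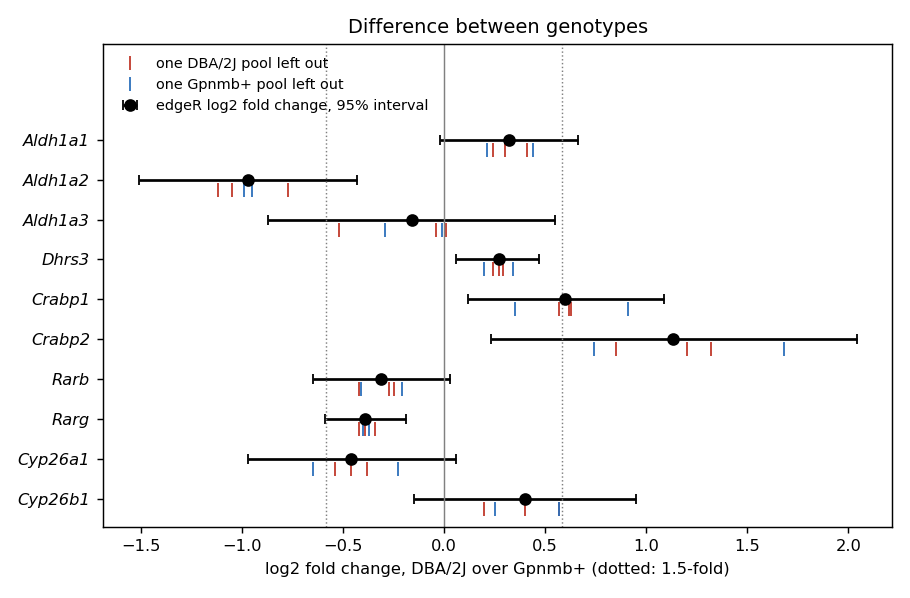
log2 fold change of DBA/2J over Gpnmb+ from edgeR (black points, bars for the 95% interval of each gene) and with 1 pool left out (ticks under each point, red for DBA/2J pools and blue for Gpnmb+ pools); dotted lines mark 1.5-fold. The intervals of Aldh1a2, Dhrs3, Crabp1, Crabp2 and Rarg leave out 0, and the ticks of Aldh1a3 lie on both sides of it.

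No tested gene with a DR5 element was called. Rarb and Cyp26a1, the members that hold them, had log2 fold changes of −0.31 and −0.46. Of the 29 other genes with the element, 15 were matched by symbol in the count table and 10 were tested. Of these 10, 3 stood higher and 7 lower in DBA/2J, 0 were called by edgeR and 0 had an unadjusted p at or under 0.05. Over all genes tested these shares were 47.4% higher, 0.796% called and 15.9% at that p. Their median log2 fold change was −0.14, beside −0.017 over all genes tested.

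Ordered by level per length, averaged over the 5 pools, Aldh1a1 (32.2 CPM per kb), Dhrs3 (31.0) and Rarg (25.7) led, followed by Cyp26b1 (19.9) and Aldh1a3 (16.4). Crabp2 (9.03), Aldh1a2 (8.46) and Crabp1 (6.11) stood lower, and Rarb (2.51) and Cyp26a1 (1.93) were the lowest of the 10. Within DBA/2J the leaders were Aldh1a1 (35.0), Dhrs3 (33.3) and Rarg (22.9), and within Gpnmb+ Rarg (29.9), Aldh1a1 (28.0) and Dhrs3 (27.7). Divided by the longest transcript instead of all exons, Rarg (40.3) passed Dhrs3 (36.0) and Aldh1a3 (23.2) passed Cyp26b1 (21.1). With Rara (3.56) and Aldh1a7 (2.21) added for comparison, neighbours in this order overlapped between their pools in 11 of 11 pairs, so the order holds only across larger steps. Per kilobase of exon Crabp2 lay above Aldh1a2 in each DBA/2J pool and under it in each Gpnmb+ pool. This exchange of places depends on the division by length, since in CPM Crabp2 lay under Aldh1a2 in all 5 pools.

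**Figure D4:**
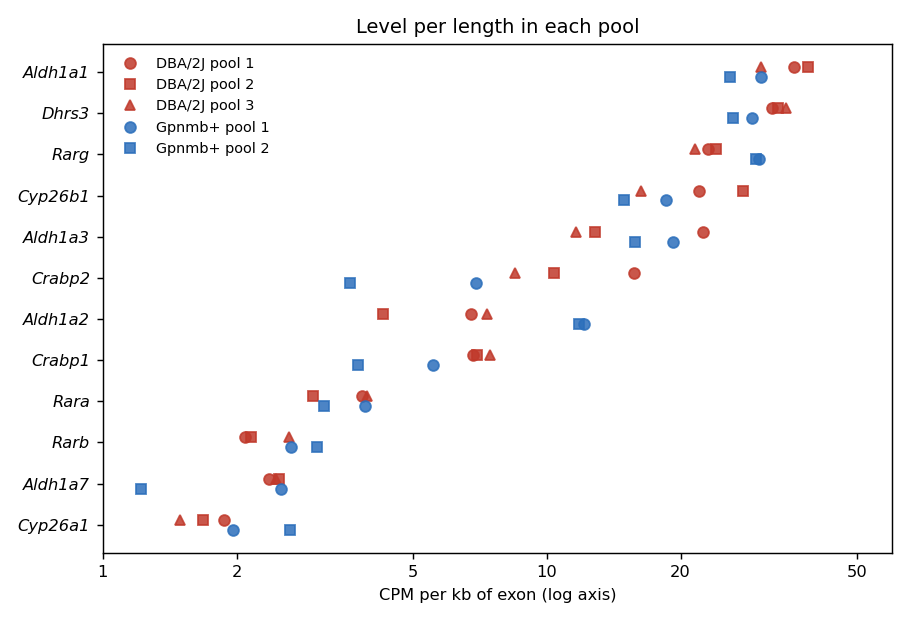
CPM per kb of exon (log axis) of the 10 genes with Rara and Aldh1a7 in each DBA/2J pool (red) and Gpnmb+ pool (blue). Aldh1a1, Dhrs3 and Rarg lie to the right, at 21.6 to 38.7 CPM per kb in all pools, and Cyp26a1 at 1.49 to 2.64.

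The genes whose pattern over the 5 pools was nearest to that of Rarg and Aldh1a2, the members with the smallest p, were found by Euclidean distance on centred log2 CPM. For Rarg they were Mxd1, a Myc antagonist of differentiating epithelium (distance 0.065), Tram1l1 (0.066) and Smarcd2, a chromatin remodelling subunit (0.068), beside a median of 0.632 over all genes. Mxd1 was at 121, 127 and 119 CPM in DBA/2J and at 160 and 163 CPM in Gpnmb+. For Aldh1a2 they were 1700028J19Rik (0.09), Gm12097 (0.098) and Kif19a (0.229), beside a median of 1.328. All 3 lay under 1 CPM in every pool, so few reads set their pattern.

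Among 54 further retinoid genes in 5 lists, 49 were tested, 23 stood higher and 26 lower in DBA/2J, and 2 were called by edgeR, where 0.796% of all genes were. The list counts that follow stand beside the same shares of all genes: 0.796% called by edgeR, 5.21% by DESeq2 and 15.9% at an unadjusted p at or under 0.05. Lrp2 and Cyp1b1 rose. DESeq2 called these 2 and 6 others, namely Dkk2, Lrat, Rbp4, Rdh5, Stra6 and Ttr, where it called 5.21% of the genes it tested. The median log2 fold change of the 49 was −0.04. An unadjusted p at or under 0.05 was found for 14 of the 49, against 15.9% of all genes. The pools of the genotypes did not overlap for 25 of the 49, against 34.5% of all genes. These lists too were chosen with earlier results of these data known, so the counts do not test them against all genes.

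In the list for uptake, transport and storage of retinol, 12 of 12 genes were tested, 4 stood higher and 8 lower, and 1 was called by edgeR. An unadjusted p at or under 0.05 was found for 7 of the 12, and DESeq2 called 5. The pools of the genotypes did not overlap for 9, against 34.5% of all genes. Lrp2, or megalin, an endocytic receptor that takes up retinol bound to its carrier, was at 75.2, 62.1 and 69.6 CPM in DBA/2J and at 30.9 and 28.8 CPM in Gpnmb+. The groups were far apart and each was tight (log2 fold change 1.21, SE 0.11, edgeR adjusted p = 0.0244). Lrp2 is also known from the ciliary epithelium, whose nonpigmented markers were 5 of 5 higher in DBA/2J (median log2 fold change 2.06), and whether these move Lrp2 was not tested.
Rbp4, the carrier of retinol in blood, was at 2.02, 1.84 and 2.67 CPM in DBA/2J and at 6.66 and 4.76 CPM in Gpnmb+ (log2 fold change −1.39, edgeR adjusted p = 0.0768). Stra6, the membrane receptor for Rbp4, was at 40.1, 47.2 and 50.6 CPM against 91.3 and 70.8 CPM (−0.82, edgeR adjusted p = 0.0782). Ttr, which holds Rbp4 in the circulation, was at 73.6, 150 and 143 CPM against 222 and 420 CPM (−1.40, edgeR adjusted p = 0.162). These 3 stood lower in every DBA/2J pool, and none was called by edgeR.
Lrat, which esterifies retinol for storage, was at 8.70, 13.7 and 16.8 CPM in DBA/2J and at 23.7 and 62.1 CPM in Gpnmb+ (−1.72, SE 0.44, edgeR adjusted p = 0.147). Gpnmb+ pool 2 stood far above the rest for Lrat and Ttr, and without it their log2 fold changes were −0.86 each; without Gpnmb+ pool 1 that of Lrat was −2.25. In the same pool the 8 photoreceptor markers summed to 1850 CPM, beside 340 CPM in Gpnmb+ pool 1 and 565 to 830 CPM in DBA/2J, and the 6 markers of pigmented epithelium and the visual cycle, Lrat among them, to 651 CPM, beside 243 CPM and 149 to 237 CPM. None of these 14 markers was called or at 0 in all pools, and the part of these tissues in the values of Lrat and Ttr was not tested.

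In the list for interconversion of retinol and retinaldehyde, 11 of 13 genes were tested, 5 stood higher and 6 lower, and 0 were called by edgeR, with 1 at an unadjusted p at or under 0.05 and 1 called by DESeq2. The largest log2 fold changes were those of Dhrs9 (0.77, adjusted p = 0.324), Rdh5, the 11-cis retinol dehydrogenase of the visual cycle (−0.70, adjusted p = 0.175), and Rdh12 of photoreceptors (−0.49, adjusted p = 0.572, and 0.33 without Gpnmb+ pool 2). Rdh10, the main retinol dehydrogenase of embryos, was at 116, 118 and 123 CPM in DBA/2J and at 88.0 and 119 CPM in Gpnmb+.

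In the list of other genes for breakdown and binding, 4 of 4 were tested, 3 stood higher and 1 was called by edgeR. An unadjusted p at or under 0.05 was found for 2, and DESeq2 called 1. Cyp1b1, a cytochrome P450 that can oxidize retinoids and whose loss causes congenital glaucoma, was at 171, 161 and 194 CPM in DBA/2J and at 105 and 95.1 CPM in Gpnmb+. All DBA/2J pools lay well above both Gpnmb+ pools (log2 fold change 0.81, SE 0.11, edgeR adjusted p = 0.0467). Fabp5, which can carry retinoic acid to Ppard, stood at 0.50 (adjusted p = 0.281), and Cyp2s1 at −0.71 (adjusted p = 0.329), neither called.

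In the list of receptors and cofactors, 11 of 11 genes were tested, 5 stood higher and 6 lower, and 0 were called by edgeR, with 0 at an unadjusted p at or under 0.05 and 0 called by DESeq2. Rara had a log2 fold change of 0.02 (95% interval −0.39 to 0.43), and the largest changes were those of Rxrg (0.55, adjusted p = 0.349), Ncoa3 (−0.20, adjusted p = 0.413) and Rxra (−0.18, adjusted p = 0.386).

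In the list of genes reported to respond to retinoic acid, 11 of 14 were tested, 6 stood higher and 5 lower, and 0 were called by edgeR, with 4 at an unadjusted p at or under 0.05 and 1 called by DESeq2. That 1 was Dkk2, a Wnt antagonist of the periocular mesenchyme, at 48.2, 59.4 and 65.7 CPM in DBA/2J and at 118 and 94.4 CPM in Gpnmb+ (−0.88, SE 0.16, edgeR adjusted p = 0.0784). Every DBA/2J pool lay under both Gpnmb+ pools. Tbx5 stood at 0.54 (adjusted p = 0.388) and Nr2f2, an orphan nuclear receptor, at −0.38 (adjusted p = 0.171). The 4 genes at that unadjusted p went both ways. Dkk2 and Nr2f2 were lower in DBA/2J. Meis1 (0.32, edgeR unadjusted p = 0.0106) and Nr2f1 (0.29, edgeR unadjusted p = 0.0323) were higher. Hoxb1, Stra8 and Cdx1, markers of the response in embryos and germ cells, were too low to test.

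The call of Cyp1b1 was lost when any 1 pool was left out, and that of Lrp2 when any pool but Gpnmb+ pool 1 was. The log2 fold changes of Cyp1b1 stayed at 0.73 to 0.88 and those of Lrp2 at 1.14 to 1.28.

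**Figure D5:**
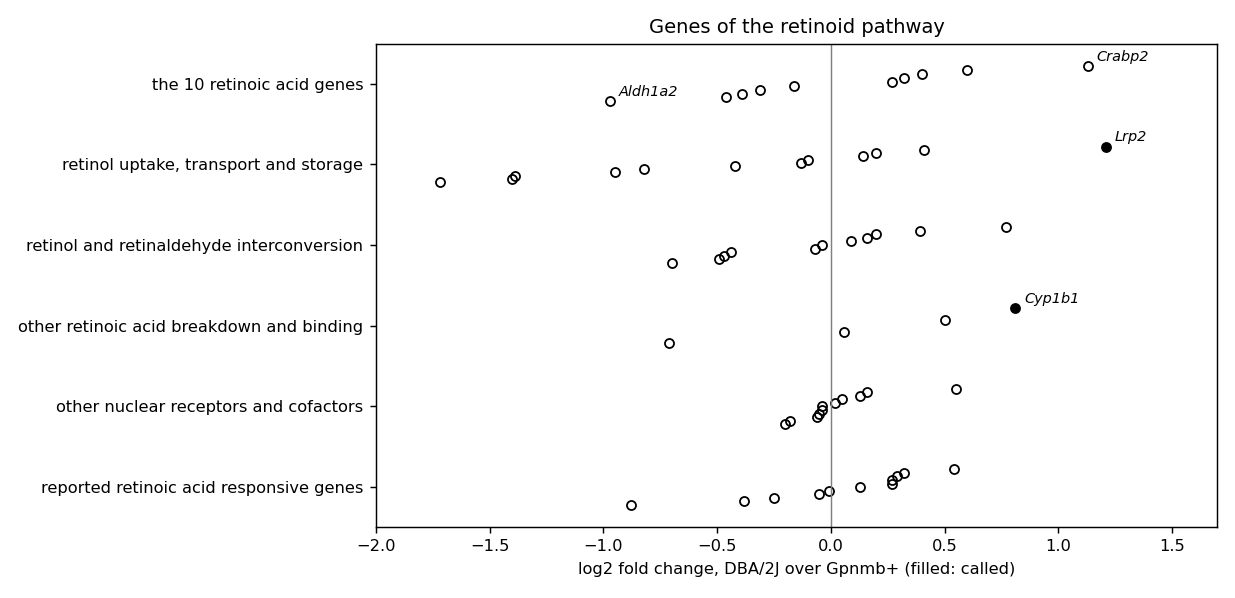
log2 fold change of DBA/2J over Gpnmb+ for the 10 genes and the 49 tested genes of the 5 retinoid lists, 1 point a gene, with filled points for genes called by edgeR. None of the 10 is filled, and Lrp2 and Cyp1b1, both to the right of 0, are the filled points of the lists.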

How the data were processed

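RNA-seq was made from pooled iridocorneal angles of 3 DBA/2J and 2 Gpnmb+ pools. The authors deposited raw read counts per Ensembl gene, not normalized, after fastp trimming, STAR alignment to GRCm39 and summing of reads aligned to a single location; tool versions and the counting strand are not given in the sources used here. The 19713 of 56941 genes that reached 10 counts in any pool were fitted with edgeR 4.0.16 (R 4.3.3; TMM, quasi-likelihood test, both genotypes in 1 factor), and changes were called at a Benjamini-Hochberg adjusted p of 0.05 and 1.5-fold. DESeq2 1.42.0, limma-voom 3.58.1, other size factors and filters, and fits without each pool were alternatives. Symbols, exons and coordinates came from GENCODE vM39, and promoter windows from RefSeq. Library totals were 43900661 to 49837758, and 3 counts, the floor of detection, were 0.0591 to 0.0699 CPM. No libraries were identical. The 10 genes and all lists were chosen with earlier results of these data known. Named genes are the 10, Gpnmb, called list genes and the 3 largest changes in each list. The 3 nearest patterns to 2 members and markers given beside a result are named too. Stra6, Rara, Rdh10, Aldh1a7, Meis1, Nr2f1, the untested genes and those that DESeq2 called were added after their values were seen. Some listed genes are not reported here and were left out of the lists and their counts.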

Additional observations from a re-analysis of the deposited data

How the results depend on the processing

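The direction of the log2 fold change held in 131 of 132 repeats over 12 genes (the 10, Lrp2 and Cyp1b1). The exception was Aldh1a3, at −0.16 with all pools and 0.01 without DBA/2J pool 3 (−0.52 to 0.01 over the pools left out). Counts of calls moved more. Over all genes, 157 were called by edgeR, 927 by DESeq2, 360 without the filter on low counts, and 1 to 217 when 1 pool was left out (6, 1 and 17 without DBA/2J pools 1, 2 and 3, and 217 and 2 without Gpnmb+ pools 1 and 2). Of the 10 retinoic acid genes, 0 were called by edgeR and 2 by DESeq2 (Aldh1a2 and Crabp2), and 0 with limma-voom, with other size factors or filters, or with any pool left out. Of the other retinoid genes, 2 were called by edgeR, 8 by DESeq2, 5 without the filter and 0 to 1 when 1 pool was left out. The cause of these differences was not tested; fits without a pool have fewer samples, and a Gpnmb+ group of 1 pool is then assumed to vary like DBA/2J. The pool numbers are shared between the genotypes but mark no common animals. The deviations of same-numbered pools correlated at 0.279 and 0.254. With 2 Gpnmb+ pools, their deviations mirror each other. DBA/2J pools 1 and 2 set against the other Gpnmb+ pool therefore gave −0.279 and −0.254, and these values do not test a pairing. DBA/2J pool 3 has no Gpnmb+ pool of its number, so a block fit takes no genotype difference from it. With the pool number as a block, 220 genes were called, among them 1 of the 10 (Crabp2, log2 fold change 1.36, edgeR adjusted p = 0.0444) and 4 of the other retinoid genes; Aldh1a2 was then at −1.16 (adjusted p = 0.0612).

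Without division by exon length the gap in share between genotypes was −6.35 instead of −9.97 percentage points for Aldh1a2 and 2.03 instead of 5.05 for Cyp26b1. Leaving out 1 pool gave 2.31 to 7.79 points for Cyp26b1. The gaps of 8.77 points for Crabp2 and −2.88 points for Rarg ranged from 4.36 to 12.68 and from −4.31 to −1.45 when 1 pool was left out. Cyp26a1, at 132 to 257 reads a pool, and Crabp1 were the members with the fewest reads.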
